A study of Danio rerio with 6 samples.

Results

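PPAR receptors, the retinoid X receptors (RXR) that they pair with and the PGC-1 coactivators were followed in zebrafish tail fin by RNA sequencing. The 10 genes were taken by symbol from a table of 24923 genes, and all 10 were found. They are 5 PPAR genes (pparg, pparaa, pparab, pparda, ppardb), 2 coactivator genes (ppargc1a, ppargc1b) and 3 RXR genes (rxraa, rxrab, rxrba). Tail fin tissue came from 3 replicates of larvae kept in 8 μM sunitinib, an inhibitor of several receptor tyrosine kinases. Another 3 replicates were kept in the vehicle alone, and the solutions of both groups held 0.1% DMSO. Exposure began at 2 days post fertilization, the fin was cut at 3 days in both groups, and tissue was taken 6 h later while the larvae stayed in their solutions. No uncut fin was analysed here, so the comparison is of sunitinib against DMSO within injured tissue. Each replicate pooled more than 60 larvae. The labels name the AB strain and the Tg(MPEG-GFP) line, in which macrophages carry GFP, but do not say which line gave which library.

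PPARs are nuclear receptors that are switched by fatty acids and related lipids. They bind DNA as heterodimers with an RXR, which is also the shared partner of the retinoic acid, thyroid hormone, vitamin D and liver X receptors. PPARγ is best known for fat cell formation, lipid storage and, in mice, the alternative activation of macrophages. PPARα drives fatty acid oxidation, and PPARδ is broadly expressed and acts in lipid use and, in mice, in keratinocytes of healing skin. PGC-1α and PGC-1β, encoded by ppargc1a and ppargc1b, bind these receptors and others and raise mitochondrial gene expression. The study asked whether sunitinib acts on tissue repair through PPARγ. Its evidence included PPARγ+ macrophage density by immunofluorescence, RT-qPCR of targets, gene set enrichment and rescue by the PPARγ agonist rosiglitazone. Here only RNA abundance of the receptor, its partners and its coactivators in whole fin is given, not receptor activity or macrophage protein. Zebrafish carry duplicates of the PPARα, PPARδ and RXR genes, marked by the final letter a or b. The final letters of ppargc1a and ppargc1b instead mark PGC-1α and PGC-1β.

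Library totals were 14813183 to 15294706 estimated reads with sunitinib and 13394060 to 14780202 with DMSO. DMSO replicate 1 stood apart from the other libraries, at a chi-square over degrees of freedom between 35.16 and 60.85 in its pairs, where all other pairs had 8.596 to 24.59. The tissue was mixed: 23 skeletal muscle markers took 22.6% to 25.1% of the counts with sunitinib and 19.1% to 26.0% with DMSO. Summed epidermal markers stood at 32770 to 37300 CPM (counts scaled to library size) with sunitinib and 29590 to 31380 with DMSO, and 14 of the 16 had a positive log2 fold change. Summed endothelial markers stood at 82.38 to 89.47 CPM with sunitinib and 99.71 to 111.3 with DMSO, and 8 of the 9 had a negative one. Summed macrophage markers overlapped, at 76.53 to 79.11 CPM with sunitinib and 67.61 to 88.29 with DMSO. Of the 13 tested macrophage markers, 10 had a negative log2 fold change and 3 a positive one, the median being -0.13. Summed liver and yolk markers overlapped, at 1366 to 1564 CPM with sunitinib and 1231 to 2176 with DMSO, where DMSO replicate 1 was highest. The sums of neutrophil, erythrocyte, pigment cell and neural markers also overlapped between the groups. No list had a marker at 0 in every library. Fin fold mesenchyme markers, with the epidermal ones, are those of the labelled tissue. They summed to 3051 to 3615 CPM with sunitinib and 3209 to 4028 with DMSO, and 6 of the 7 had a negative log2 fold change. The part of these cell types in the values of the 10 genes was not tested. In such bulk tissue, fewer cells of a type and less RNA per cell cannot be told apart.

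None of the 10 genes passed an adjusted p of 0.05, and 8 could be tested. The other 2, pparab and rxrab, were below the low-count filter. Across all genes edgeR's quasi-likelihood test called 0 of 17309, a share of 0%, and its smallest adjusted p was 0.19. Of the 8 tested genes, 0 had an unadjusted p under 0.05, against 6.12% of all tested genes that did so with lower and 7.51% with higher expression under sunitinib. DESeq2, run without edgeR's filter, called 43 of the 14002 genes to which it gave an adjusted p (0.307%). It called 0 of the 7 among the 10 that received one, gave none to pparg, pparab and rxrab, and had 0 of the 10 at an unadjusted p under 0.05. Fold changes on the log2 scale were negative for 7 of the 8 and positive for 1, their median being -0.12, while over all tested genes the median was -0.0041 and 50.5% were negative. The 95% interval excluded a 2-fold change in either direction for 8 of 8 and a 1.5-fold change in either direction for 5 of 8. The 2-fold limit did not hold for pparg in 7 alternative fits, where its interval reached past a 2-fold fall: DESeq2 (-1.16 to 0.66), removal of a trend on transcript length (-1.09 to 0.29), the replicate block, and the fits without DMSO replicate 1 or 2 or without sunitinib replicate 1 or 2. For ppargc1a it did not hold in DESeq2 or without sunitinib replicate 3.

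**Figure D1:**
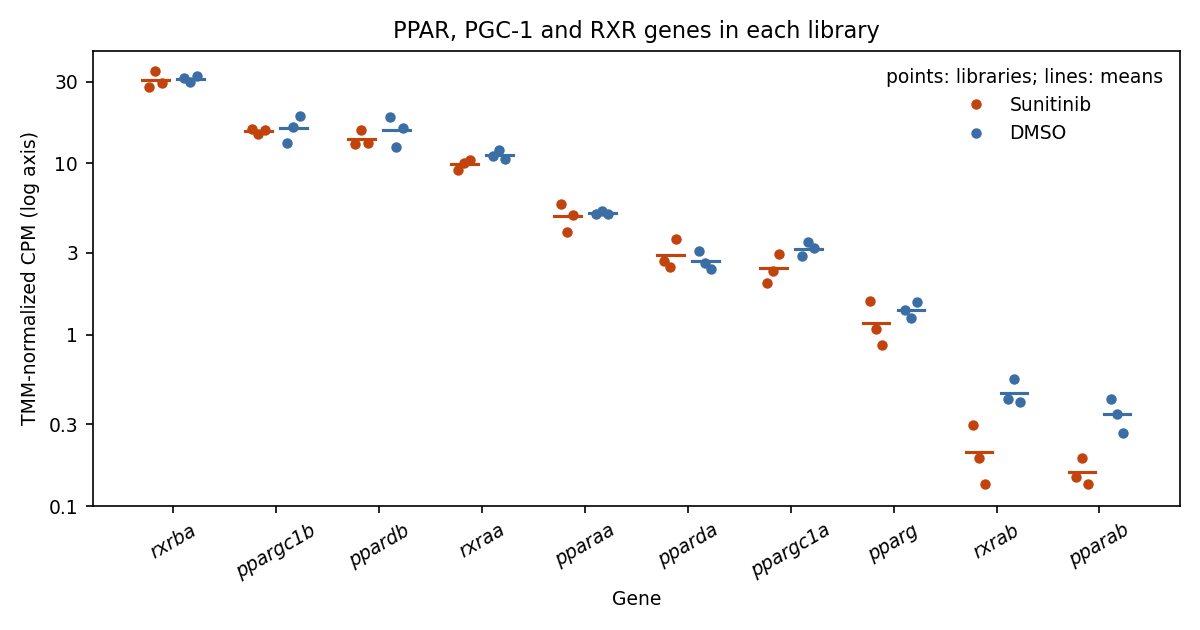
Expression of the 10 genes in each library, as TMM-normalized CPM on a log axis, with sunitinib left of DMSO for each gene; points are the 3 libraries of a group and lines their means. The groups overlap for 7 genes, and for rxraa, pparab and rxrab every sunitinib library lies below every DMSO library. This lower pattern was found in 10.8% of all tested genes and in 6.21% of the untested genes with at least 20 reads. In TPM the groups of rxraa, pparab and rxrab overlap.

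Transcripts of pparg, the receptor at the centre of the study, were rare in this tissue. The gene was read 21, 17 and 13 times with sunitinib, against 20, 18 and 23 times with DMSO. As TMM-normalized CPM, whose scaling makes most genes match between libraries, these were 1.56, 1.08 and 0.875 with sunitinib and 1.40, 1.25 and 1.55 with DMSO. The highest of the 6 values was sunitinib replicate 1 and the 2 lowest were the other sunitinib libraries, so the groups overlapped. The mean was 1.17 ± 0.353 CPM with sunitinib and 1.40 ± 0.150 with DMSO (SD, n = 3 each). The log2 fold change of pparg was -0.26 (standard error, SE, 0.32, adjusted p = 0.722), with a 95% interval of -0.95 to 0.42. That interval, the widest among the 8 tested genes, runs from 0.518 to 1.34 times the DMSO level. Without sunitinib replicate 1 the estimate was -0.50, and without sunitinib replicate 3 it was -0.09.

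PPARα is encoded by pparaa and pparab, of which pparaa carried nearly all the reads. Reads of pparaa numbered 78, 63 and 74 with sunitinib and 72, 76 and 75 with DMSO. All 3 DMSO values fell inside the range of the sunitinib values, and means were 4.93 ± 0.905 CPM with sunitinib and 5.11 ± 0.132 with DMSO (SD, n = 3 each). For pparaa the log2 fold change was -0.06 (SE 0.19, adjusted p = 0.911), with a 95% interval of -0.48 to 0.36.

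The PPARδ genes differed from each other in level. For ppardb, the more abundant of the pair, reads were 174, 245 and 195 with sunitinib and 266, 179 and 240 with DMSO. The groups overlapped, with 13.9 ± 1.45 CPM with sunitinib and 15.7 ± 3.12 with DMSO (SD, n = 3 each). Its log2 fold change was -0.18 (SE 0.17, adjusted p = 0.644), and -0.04 without DMSO replicate 1, which had the most ppardb reads, and -0.32 without DMSO replicate 2, which had the fewest of its group. For pparda, reads were 36, 39 and 54 with sunitinib and 44, 38 and 36 with DMSO. This was the only tested gene of the 10 with a positive log2 fold change, 0.11 (SE 0.24, adjusted p = 0.847), and its 95% interval was -0.40 to 0.63. The positive value rested on sunitinib replicate 3, since it was -0.07 without that library.

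Summed over the 5 PPAR genes, in TPM (a level corrected for transcript length, so that genes can be compared), PPAR transcripts came to 4.88, 6.59 and 5.39 with sunitinib and 7.53, 5.78 and 6.99 with DMSO. The sums overlapped, with means of 5.62 ± 0.878 TPM with sunitinib and 6.77 ± 0.896 with DMSO (SD, n = 3 each). The order of the genes in the pool was the same in both groups. PPARδ's ppardb made up 58.3% of PPAR TPM with sunitinib and 58.5% with DMSO, and pparaa made up 19.5% with sunitinib and 18.1% with DMSO. For pparg the share was 12.8% with sunitinib and 13.7% with DMSO. Per library that share was 16.6%, 11.7% and 10.0% with sunitinib and 12.2%, 14.0% and 14.9% with DMSO. In every library the PPAR gene with the highest TPM was ppardb, not pparg.

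**Figure D2:**
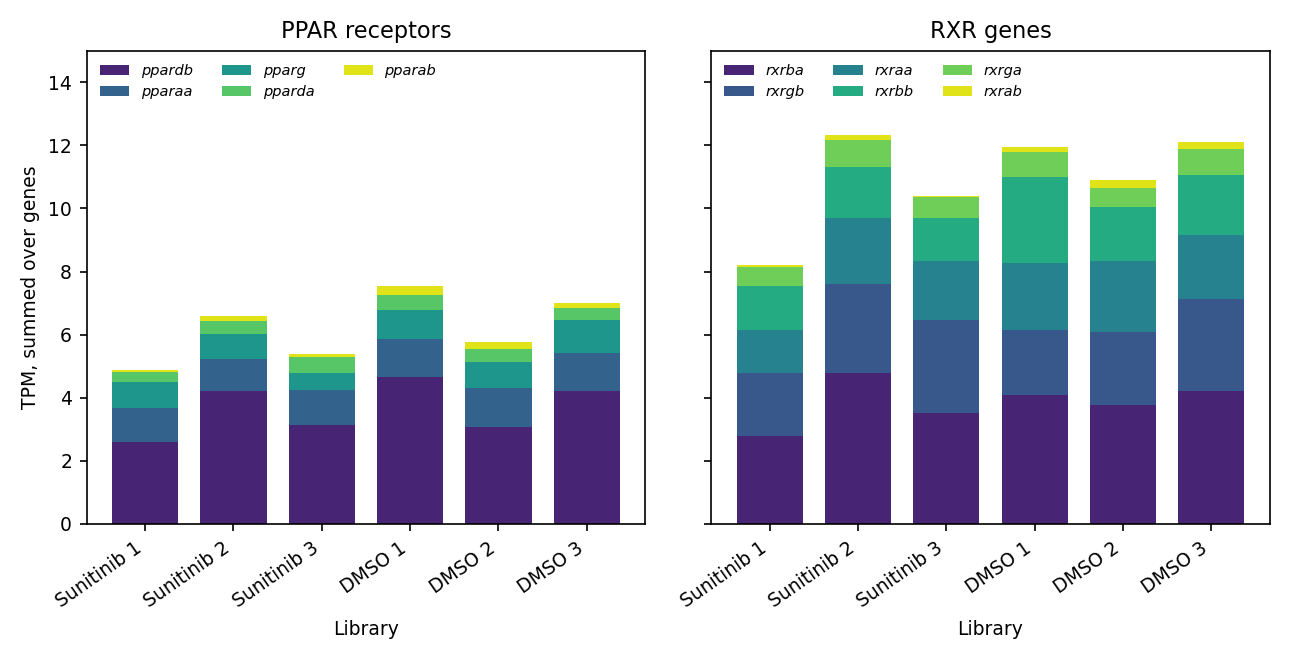
TPM per library, stacked by gene, for the 5 PPAR genes (left panel) and the 6 RXR genes (right panel), with the 3 sunitinib libraries left of the 3 DMSO libraries. The darkest segment at the base is ppardb among the PPARs, at 2.59 to 4.22 TPM with sunitinib and 3.08 to 4.66 with DMSO, and rxrba among the RXRs, at 2.8 to 4.79 with sunitinib and 3.78 to 4.22 with DMSO.

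Of the coactivators, ppargc1a had the lowest fold change and the smallest p of the 8 tested genes. It was read 27, 37 and 44 times with sunitinib and 41, 50 and 48 times with DMSO. In CPM these were 2.01, 2.35 and 2.96 with sunitinib and 2.86, 3.46 and 3.23 with DMSO, so the groups overlapped through sunitinib replicate 3 and DMSO replicate 1. Means were 2.44 ± 0.483 CPM with sunitinib and 3.18 ± 0.301 with DMSO (SD, n = 3 each). The log2 fold change of ppargc1a was -0.38 (SE 0.23, adjusted p = 0.473), with a 95% interval of -0.89 to 0.13, and it stayed negative, at -0.54 to -0.26, when any 1 library was left out. Its unadjusted p was 0.129.

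The related ppargc1b was read 213, 233 and 231 times with sunitinib and 187, 234 and 280 times with DMSO. The 3 sunitinib libraries lay close together at 15.4 ± 0.549 CPM, inside the DMSO range, where the mean was 16.0 ± 2.88 (SD, n = 3 each). For ppargc1b the log2 fold change was -0.06 (SE 0.16, adjusted p = 0.884), with a 95% interval of -0.40 to 0.28. Together the PGC-1 genes summed to 2.30 ± 0.363 TPM with sunitinib and 2.73 ± 0.412 with DMSO (SD, n = 3 each). PGC-1α's ppargc1a made up 24.3% of that sum with sunitinib and 29.0% with DMSO, so ppargc1b was the larger part in both groups.

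Among the RXR partners, rxraa was read 123, 158 and 156 times with sunitinib and 158, 173 and 157 times with DMSO. In CPM it stood at 9.15, 10.0 and 10.5 with sunitinib and 11.0, 12.0 and 10.6 with DMSO, so the groups did not overlap, though the nearest values, sunitinib replicate 3 and DMSO replicate 3, were almost level. Such a lower, non-overlapping pattern was found in 10.8% of all tested genes. The log2 fold change of rxraa was -0.18 (SE 0.15, adjusted p = 0.599), with a 95% interval of -0.50 to 0.15. In the authors' TPM the groups of rxraa overlapped, at 1.36, 2.08 and 1.86 with sunitinib and 2.11, 2.25 and 2.04 with DMSO.

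The gene with the most reads of the 10 was rxrba, read 375, 542 and 437 times with sunitinib and 452, 430 and 482 times with DMSO. Sunitinib replicates 1 and 2 gave the lowest and highest CPM of the 6 libraries, and the means were 30.6 ± 3.40 with sunitinib and 31.3 ± 1.34 with DMSO (SD, n = 3 each). Its log2 fold change was -0.03 (SE 0.14, adjusted p = 0.932). The 95% interval of rxrba, -0.32 to 0.26, was the narrowest of the 8.

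**Figure D3:**
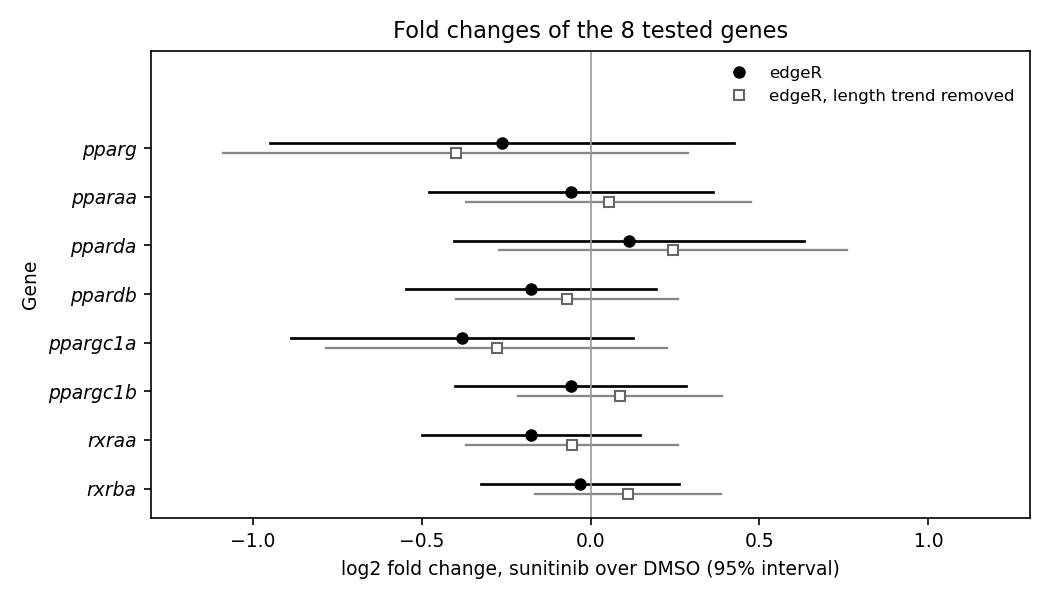
Log2 fold change, sunitinib over DMSO, with its 95% interval for the 8 tested genes, from edgeR on the counts (filled circles) and after the trend of fold change on transcript length was removed (open squares). Every interval crosses 0, and the widest is that of pparg.

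The low-count genes were pparab and rxrab, which were read fewer than 10 times in every library. For pparab, the second PPARα gene, reads were 2, 3 and 2 with sunitinib and 6, 5 and 4 with DMSO, or 7 against 15 in all. For rxrab, the second RXRα gene, reads were 4, 3 and 2 with sunitinib and 6, 8 and 6 with DMSO, or 9 against 20 in all. Both genes were lower in every sunitinib library than in any DMSO library, a pattern found in 6.21% of the untested genes with at least 20 reads. The ratio of depth-scaled reads, sunitinib over DMSO, was 0.462 for pparab, with a 95% exact counting interval of 0.159 to 1.2, and 0.446 for rxrab, with an interval of 0.179 to 1.02. These intervals cover counting error only, and both contain 1. The exact 2-sided permutation test of the CPM gave p = 0.10 for each gene, which is the smallest that 3 against 3 can give.

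Read counts and length-scaled values differed for these rare genes. In TPM, pparab stood at 0.06, 0.15 and 0.09 with sunitinib and 0.26, 0.25 and 0.15 with DMSO, and rxrab at 0.09, 0.17 and 0.05 with sunitinib and 0.17, 0.23 and 0.22 with DMSO. The groups met at 0.15 TPM for pparab and at 0.17 for rxrab, and the exact permutation p was 0.20 for each. For rxrab, 4 reads came to 0.09 TPM in sunitinib replicate 1 while 3 reads came to 0.17 in sunitinib replicate 2, so the length-scaled value of a read differed between these libraries. When the low-count filter was dropped, edgeR gave unadjusted p values of 0.156 for pparab and 0.0972 for rxrab. Limma on log2(FPKM + 1) without a filter gave 0.0301 and 0.0359, and neither passed after adjustment. The added 1 is large beside the levels of both genes, which reached at most 0.26 TPM. The share of all genes with an unadjusted p under 0.05 in that fit is not given here. The study drew genes of the PPAR signaling pathway in a heatmap of these same libraries, so the direction of such genes here is not independent evidence.

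Ordered by mean TPM over the 6 libraries, the 10 genes fell into a few levels. The top was shared by rxrba, at 3.86 ± 0.678, and ppardb, at 3.65 ± 0.823 (SD, n = 6), whose ranges overlapped. Next came rxraa, at 1.95 ± 0.315, and ppargc1b, at 1.84 ± 0.293, which also overlapped each other but lay below ppardb in every library. Below these, pparaa had 1.14 ± 0.0813, pparg 0.815 ± 0.167, ppargc1a 0.677 ± 0.161 and pparda 0.430 ± 0.0716 TPM. Each neighbour in that run overlapped the next in range, although pparaa exceeded pparg in 6 of 6 libraries and ppargc1a exceeded pparda in 6 of 6. The lowest were pparab, at 0.160 ± 0.0815, and rxrab, at 0.155 ± 0.0715 TPM, which could not be ordered, as pparab was higher in 3 of 6. Among all genes with expression, rxrba lay at percentile 69.8, pparg at 43.3 and rxrab at 22.6.

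The remaining RXR genes of zebrafish, rxrbb, rxrga and rxrgb, complete the set of partners. Together the 6 RXR genes came to 8.22, 12.3 and 10.4 TPM with sunitinib and 12.0, 10.9 and 12.1 with DMSO, a mean of 10.3 ± 2.06 with sunitinib and 11.7 ± 0.665 with DMSO (SD, n = 3 each). The largest shares were those of rxrba, 35.5% with sunitinib and 34.5% with DMSO, and rxrgb, 25.2% with sunitinib and 20.8% with DMSO. Reads of rxrbb were 40, 37 and 34 with sunitinib and 62, 40 and 43 with DMSO, with a log2 fold change of -0.39 (SE 0.25, adjusted p = 0.484), which was -0.16 without DMSO replicate 1. For rxrgb the log2 fold change was 0.20 (SE 0.20, adjusted p = 0.666), and for rxrga it was 0.01 (SE 0.28, adjusted p = 0.993). When sunitinib replicate 3 was left out rxrgb had 0.09, and when DMSO replicate 3 was left out it had 0.33. RXR pools in all libraries thus held rxrba as the gene with the highest TPM.

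The list of other RXR genes and receptors that pair with RXR had 14 tested genes out of 19. Of these, 6 were above and 8 below 0 on the log2 fold change scale, the median being -0.16, and 0 passed an adjusted p of 0.05. At an unadjusted p under 0.05, 0 were higher and 2 were lower, or 14.3% lower against the 6.12% of all tested genes. Both were thyroid hormone receptor α genes. For thrab, CPM was 3.94, 5.20 and 5.05 with sunitinib and 6.36, 6.51 and 8.27 with DMSO, a log2 fold change of -0.57 (SE 0.19, adjusted p = 0.307). For thraa, CPM was 1.41, 1.08 and 1.62 with sunitinib and 2.45, 1.66 and 2.76 with DMSO, a log2 fold change of -0.74 (SE 0.30, adjusted p = 0.329). In each gene every sunitinib value lay below every DMSO value, a pattern found in 10.8% of all tested genes. Both were named for their small p, which favours such separation. Next by p came rxrbb, given above, and then the retinoic acid receptor gene raraa. For raraa the log2 fold change was -0.24 (SE 0.16, adjusted p = 0.506), and -0.14 without sunitinib replicate 2. Without DMSO replicate 3 the number lower at an unadjusted p under 0.05 was 0, and without sunitinib replicate 2 it was 1. Without DMSO replicate 2, 1 was higher. The shares of all genes at that limit in these fits are not given here.

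Coregulators are the proteins that carry the signal of a nuclear receptor to chromatin and to RNA polymerase. All 22 listed genes were tested, and 20 were below and 2 above 0 on the log2 fold change scale, the median being -0.16, and 0 passed an adjusted p of 0.05. The positive ones, named after their values were seen, were hdac3, a histone deacetylase of the corepressor complex, at 0.24, and ep300b, a histone acetyltransferase, at 0.05. At an unadjusted p under 0.05, 3 were lower (13.6%, against 6.12% of all tested genes) and 0 were higher (against 7.51%). These were pprc1, the third member of the PGC-1 family, med1, the Mediator subunit that contacts PPARs, and nrip1a, a corepressor.

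For pprc1, CPM was 10.2, 11.6 and 11.6 with sunitinib and 17.7, 13.6 and 14.1 with DMSO, a log2 fold change of -0.44 (SE 0.16, adjusted p = 0.307). For med1, CPM was 16.2, 16.0 and 16.6 with sunitinib and 18.7, 19.9 and 26.1 with DMSO, a log2 fold change of -0.41 (SE 0.16, adjusted p = 0.317). Neither gene's groups overlapped, a lower pattern found in 10.8% of all tested genes. Both genes were named for their small p, which favours separated groups. In both the DMSO values were more spread, with DMSO replicate 1 highest for pprc1 and DMSO replicate 3 highest for med1. For nrip1a the log2 value was -0.33 (SE 0.15, adjusted p = 0.362), and for tbl1x, a subunit of the corepressor complex, it was -0.46 (SE 0.23, adjusted p = 0.394), but -0.22 without DMSO replicate 1. Without DMSO replicate 3 the value of med1 was -0.25. With 1 library left out, 16 to 20 of the 22 were negative, and 15 were so in each of these fits. The number at an unadjusted p under 0.05 was 0 without sunitinib replicate 1 and 1 without sunitinib replicate 2. The shares of all genes at that limit in these fits are not given here.

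Transcript length moved with these directions. Effective length counts the transcript positions at which a fragment can start. It was not taken from an annotation but worked out per gene from the authors' counts and FPKM of all 6 libraries. Its Spearman correlation with log2 fold change, taken across all tested genes, was -0.403, and genes are not replicates of each other. The median log2 fold change was 0.21 in the shortest length decile of genes and -0.15 in the longest, in which 75.7% of genes were negative. Of the 8 tested PPAR, PGC-1 and RXR genes, 7 were longer than the median tested gene of 2052 bases, the exception being pparg at 1257, and of the 22 coregulators 21 were longer. With the length trend removed in the fit, 4 of the 8 were positive and 4 negative with a median of -0.0001, and of the coregulators 10 were positive and 12 negative with a median of -0.06. The values of pparg and ppargc1a were then -0.40 and -0.28, and those of ppardb and rxraa -0.07 and -0.05. Those of pparaa, ppargc1b and rxrba turned positive at 0.05, 0.09 and 0.11, and 0 of the 8 passed an adjusted p of 0.05. At an unadjusted p under 0.05 in that fit, 1 coregulator was lower and 0 were higher. The values of pprc1, med1 and nrip1a were -0.32, -0.26 and -0.19. In the list of RXR partner receptors, 2 were lower and 0 higher, with thrab at -0.44 and thraa at -0.79. The share of all genes at that limit in that fit is not given here.

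**Figure D4:**
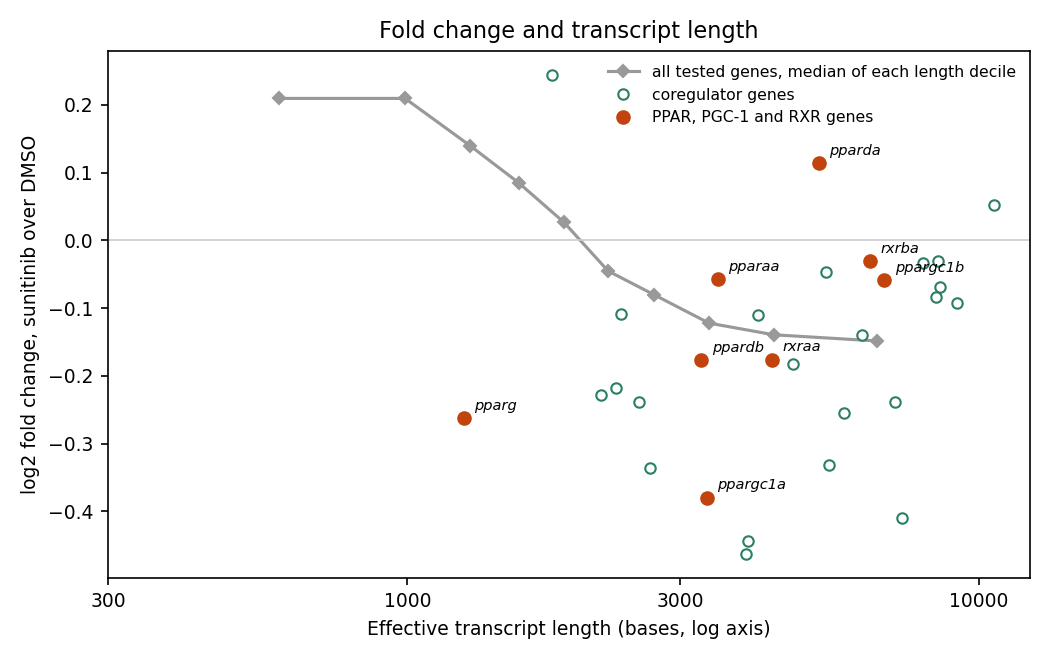
Log2 fold change, sunitinib over DMSO, against effective transcript length in bases on a log axis, for the 8 tested PPAR, PGC-1 and RXR genes (filled), the 22 coregulators (open) and the median of each length decile of all tested genes (diamonds, joined). The decile medians run from 0.21 at the short end to -0.15 at the long end, and pparg, ppardb, ppargc1a and rxraa lie below the median of their own decile.

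Listed PPAR target genes were followed next, and whether they respond to PPARs in this tissue was not tested. Of 59 listed symbols, 56 genes were in the table and 46 were tested, with 27 positive and 19 negative log2 fold changes and a median of 0.07. None passed an adjusted p of 0.05. At an unadjusted p under 0.05, 7 were higher (15.2%, against 7.51% of all tested genes) and 2 were lower (4.35%, against 6.12%). With the length trend removed, 8 were higher and 4 lower at that limit. In that fit 26 targets were positive and 20 negative, with a median of 0.04. The number higher was 4 without DMSO replicate 3 or sunitinib replicate 3, 9 without DMSO replicate 2 and 10 without sunitinib replicate 2. The number lower was 4 without DMSO replicate 2 and without either sunitinib replicate 2 or 3, and 3 without DMSO replicate 3 or sunitinib replicate 1. With limma on log2(FPKM + 1), 4 of 45 targets were higher and 2 lower. Without a filter limma had 4 of 56 higher and 4 lower, with 27 positive, 29 negative and a median of -0.0062. Both edgeR without a filter and DESeq2 had 9 of 56 higher and 2 lower. The shares of all genes at that limit in these alternative fits are not given here. PPAR targets thus did not all lie on the same side of 0.

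The 2 targets with the smallest p encode acyl-CoA dehydrogenases, which take the first step of mitochondrial fatty acid oxidation. For acadl, CPM was 55.6, 68.3 and 75.1 with sunitinib and 34.2, 52.0 and 37.9 with DMSO, a log2 fold change of 0.68 (SE 0.18, adjusted p = 0.267). For acadm, CPM was 102.1, 118.2 and 120.3 with sunitinib and 65.5, 90.8 and 68.4 with DMSO, a log2 fold change of 0.60 (SE 0.16, adjusted p = 0.277). With the length trend removed, acadl was at 0.59 and acadm at 0.49. In both genes every sunitinib library lay above every DMSO library, and DMSO replicate 2 was the nearest. Choice by smallest p favours such separation, and the share of all genes with this higher pattern was not counted. The fatty acid transporter and acyl-CoA synthetase gene slc27a2a went the other way, at -0.50 (SE 0.16, adjusted p = 0.303), and cyp27a7, a sterol hydroxylase gene listed under its RefSeq symbol cyp27a1.1, was at 0.57 (SE 0.19, adjusted p = 0.303).

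The targets that the study measured by RT-qPCR included fabp11a, a fatty acid binding protein gene of the FABP4 type, and cd36, a fatty acid translocase gene. Reads of fabp11a were 949, 690 and 708 with sunitinib and 529, 817 and 881 with DMSO, and the groups overlapped widely. Its log2 fold change was 0.08 (SE 0.21, adjusted p = 0.872), and -0.10 without DMSO replicate 1, which had the fewest reads. Reads of cd36 were 27, 26 and 23 with sunitinib and 12, 24 and 22 with DMSO, with a log2 fold change of 0.38 (SE 0.31, adjusted p = 0.591). DMSO replicate 1 was the lowest for cd36, and without it the log2 fold change was 0.14. The macrophage gene mpeg1.1 had 5.30 ± 1.25 CPM with sunitinib and 5.82 ± 1.93 with DMSO (SD, n = 3 each), a log2 fold change of -0.13 (SE 0.25, adjusted p = 0.835), and the part of macrophage number in the values of pparg was not tested.

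PGC-1 proteins act on mitochondria through other factors, and 22 of 24 listed partner and mitochondrial biogenesis genes were tested. Of these 12 were positive and 10 negative with a median of 0.02, and 0 passed an adjusted p of 0.05. At an unadjusted p under 0.05, 0 were higher (against 7.51% of all tested genes) and 1 was lower (4.55%, against 6.12%). That gene was polrmt, the mitochondrial RNA polymerase, with CPM of 7.29, 6.73 and 7.27 with sunitinib and 9.15, 9.63 and 8.80 with DMSO and a log2 fold change of -0.37 (SE 0.16, adjusted p = 0.339). The mitochondrial transcription factor genes tfb2m and tfam had 0.32 (SE 0.15, adjusted p = 0.368) and 0.35 (SE 0.17, adjusted p = 0.379). With the length trend removed, polrmt was at -0.24, tfb2m at 0.26 and tfam at 0.19, and tfam was at 0.21 without DMSO replicate 1 and 0.55 without DMSO replicate 2. The estrogen-related receptor gene esrrb had -0.44 (SE 0.22, adjusted p = 0.400), and -0.28 without sunitinib replicate 1. Without any 1 of the sunitinib replicates the number lower at an unadjusted p under 0.05 was 0. The number higher was 3 without DMSO replicate 2 and 1 without DMSO replicate 1 or sunitinib replicate 1. The shares of all genes at that limit in these fits are not given here.

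**Figure D5:**
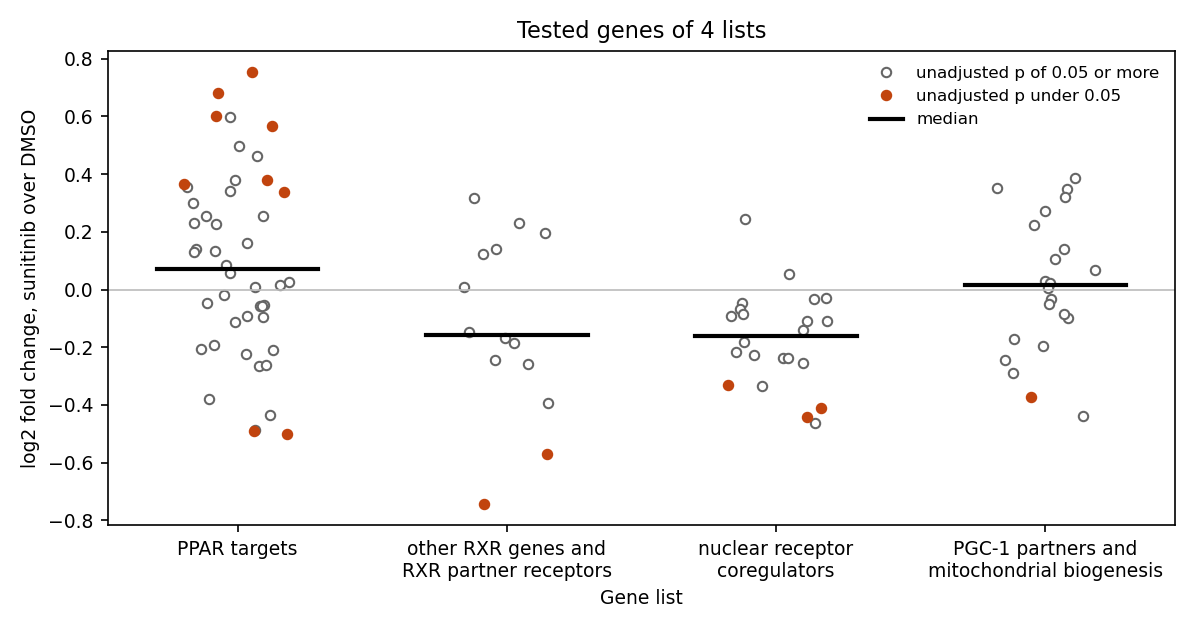
Log2 fold change, sunitinib over DMSO, of each tested gene in the 4 lists, with the median as a bar and genes with an unadjusted p under 0.05 filled. The medians are 0.07 for PPAR targets, -0.16 for other RXR genes and partner receptors, -0.16 for coregulators and 0.02 for PGC-1 partners, and no gene passed an adjusted p of 0.05.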

How the data were processed

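The authors deposited 1 table with, per gene and replicate, estimated counts of reads, FPKM and TPM (scaled by the authors for length and depth) and a normalized count signal, which was not used. The authors' group averages were not used either. Strand-specific 150 bp paired reads were filtered and aligned to GRCz11, the build in the submitters' processing notes. Which aligner, counter and annotation served is not given in the sources used here. Counts were rounded to whole numbers. All 10 genes had whole counts in every library. Groups came from the sample titles.

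Quasi-likelihood F-tests (edgeR 4.0.16, R 4.3.3; TMM scaling, filterByExpr) were run over all 17309 genes that passed the filter, with Benjamini-Hochberg adjustment, and 7614 were not tested. The biological coefficient of variation was 0.153. Standard errors are the absolute log2 fold change over the square root of F. Genes below the filter were given by reads, with an exact permutation test (scipy 1.17.1). Alternatives were other scalings and filters, DESeq2 1.42.0, limma 3.58.1 on log2(FPKM + 1) or log2(FPKM + 0.1) and with voom, removal of the length trend (lowess, span 0.3), a replicate block and leaving out each replicate. The paper names DESeq2. Scripts were tested on simulated data.

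Named genes are the 10, the up to 4 tested genes of smallest p in each list, fabp11a, cd36 and mpeg1.1, with rxrga and rxrgb to complete the RXRs. Members and lists were chosen with earlier results of these data known. List symbols were matched by symbol, RefSeq gene ID or synonym.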

Additional observations from a re-analysis of the deposited data

How the results depend on the processing

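None of the genes that could be tested among the 10 passed an adjusted p of 0.05 in edgeR or under any alternative run, and the smallest adjusted p that any of the 8 tested genes reached was 0.334. The number over all genes was 12 without a filter on low counts, 43 with DESeq2, 2 with limma on log2(FPKM + 1) without a filter, and 0 to 3 when 1 replicate was left out (3 without DMSO replicate 1, 1 without DMSO replicate 2). Of 132 alternative values for the 8 genes, 124 kept their direction and 8 did not. The sign was the same in every alternative for pparg (-0.50 to -0.09), ppardb, ppargc1a and rxraa. With the length trend removed, pparaa was 0.0535, ppargc1b 0.0878, rxrba 0.11, fabp11a -0.12 and rxrga -0.0578. With 1 replicate left out, pparaa ran from -0.18 to 0.0767, pparda from -0.0672 to 0.23, ppargc1b from -0.19 to 0.0726, rxrba from -0.12 to 0.0354, fabp11a from -0.15 to 0.22, mpeg1.1 from -0.34 to 0.18 and rxrga from -0.0986 to 0.0696. For rxrga limma gave -0.0234 on log2(FPKM + 1), with and without a filter, and -0.0408 on log2(FPKM + 0.1). The cause was not tested.

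Nothing in the labels says that the replicate numbers mark a shared day or clutch, so they were not taken as pairs. Deviations of same-numbered replicates had correlations of -0.175, -0.0981 and 0.0189, and those of differently numbered ones ran from -0.19 to 0.219. With the replicate block, 0 of the 8 tested genes and 0 of all genes passed, and ppargc1a had -0.39. Limma with FPKM of at least 1 gave no value for pparda and ppargc1a. Depth limits pparg, with 51 reads with sunitinib and 61 with DMSO, and leaves pparab and rxrab untested. The labels call the samples biological replicates of pooled larvae, and p-values measure the spread between these pools.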
